A study of Arabidopsis thaliana with 6 samples.

Results

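Aux/IAA and ARF genes encode the pair of nuclear protein families through which auxin controls transcription in plants. A total of 42 *Arabidopsis* genes of these families was listed by locus identifier, and 40 of them were among the 26764 genes of the count table: 25 of 27 Aux/IAA genes and all 15 ARF genes. IAA31 (AT3G17600) and IAA33 (AT5G57420) were not analysed here. Transcripts were measured by RNA-seq of pooled 3-week-old Col-0 seedlings grown on plates in long days. The wt group was wild type, and the *3h1* group was the triple mutant h1.1-1h1.2-2h1.3-2, which carries T-DNA insertions in the genes for linker histone H1, the protein that binds nucleosomes and the DNA between them. According to the paper, the h1.3 allele came from the Ler accession, and the backcrossed mutant kept some Ler sequence, mainly around H1.3. The paper also states that reads overlapping this sequence were filtered out, in its methods for another assay. Whether that filter was applied to the counts used here, and whether any member lies in such sequence, was not tested. Each group had 3 libraries, labelled as biological replicates, and no treatment was given. Seedlings hold all organs, so that fewer cells of a type and less RNA per cell cannot be told apart.

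Aux/IAA proteins are short-lived repressors. They bind ARFs, which are transcription factors that recognise auxin response elements in promoters, and they recruit corepressors of the TPL/TPR family. Auxin joins an Aux/IAA protein to an F-box receptor of the TIR1/AFB family through a short degron, and the Aux/IAA protein is then ubiquitinated and degraded, which frees the ARF. Most Aux/IAA genes are themselves induced by auxin, so that their transcripts are commonly read as a report of the auxin response. Class A ARFs (ARF5, ARF6, ARF7, ARF8 and ARF19) activate transcription in *Arabidopsis* reporter assays, whereas class B and class C ARFs are mostly classed as repressors. Several ARF transcripts are cleaved under the direction of miR160, miR167 or trans-acting small RNAs from the TAS3 loci.

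The deposited values were expected counts per gene, in which a read that maps to several loci was divided between them. Total counts were from 4753812 to 6174881 per library, and 1846022 to 2877178 of these counts fell on nuclear genes. Chloroplast genes took from 55.5 to 60.01% of the total in wt and from 52.2 to 54.5% in *3h1*. Counts of a gene were therefore compared between genotypes as CPM, the count relative to the size of the library, after TMM scaling (trimmed mean of M values), which sets libraries to a common level through the bulk of their genes. The genotype labels were checked on the targeted genes. H1.1 (AT1G06760) had 416, 414 and 349 counts in wt and 84, 104 and 120 in *3h1*, and H1.2 (AT2G30620) had 420, 350 and 420 counts in wt and 86, 76 and 87.9 in *3h1*. The groups did not overlap for either gene, with log2 fold changes of -2.28 ± 0.21 (SE) and -2.58 ± 0.15 (SE) and edgeR quasi-likelihood adjusted p values of 0.00163 and 4.05e-05. H1.3 was not analysed here. More genes had a count in *3h1* libraries 1 and 3 (26570 and 26679) than in the other 4 libraries (24861 to 25787).

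Sequences that members share are described first, since some members are grouped by them below. Whether these sequences bear on the values was not tested. Mature miR160a-5p and miR167a-5p are shown with their seed, bases 2 to 8, in capitals. All 3 annotated miR160 loci encode the same 5-prime strand, and miR167a, miR167b and miR167d share a seed.
miR160a-5p: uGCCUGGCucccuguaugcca
miR167a-5p: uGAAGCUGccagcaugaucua
With at most 4 mismatches allowed, the transcripts of 5 ARF genes and of no Aux/IAA gene held a site complementary to one of these miRNAs, and all 5 sites lay within a single coding exon (TAIR10.1). Sites for miR160 were found in the class C genes ARF10 (AT2G28350, chr2:12115741-12115761, plus strand), ARF16 (AT4G30080, chr4:14704141-14704161, minus strand) and ARF17 (AT1G77850, chr1:29274189-29274209, plus strand). Sites for miR167 were found in the class A genes ARF6 (AT1G30330, chr1:10686478-10686498, minus strand) and ARF8 (AT5G37020, chr5:14633841-14633861, plus strand). The sites are printed as DNA on the transcript strand, with the bases that do not pair with the miRNA in capitals.
ARF17 site: tggcatGcagggagccaggca
ARF10 site: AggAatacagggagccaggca
ARF16 site: GggTTtacagggagccaggca
ARF8 site: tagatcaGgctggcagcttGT
ARF6 site: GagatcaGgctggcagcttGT
Mismatches numbered 1 in ARF17, 2 in ARF10 and 3 in ARF16, and all of them lay in the 5-prime part of the site, which faces the 3-prime end of miR160. The mismatches numbered 3 in ARF8 and 4 in ARF6, and the last bases of both sites face the 5-prime end of miR167. Of 37885 annotated genes scanned, 0.0106% had a miR160 site and 0.0238% a miR167 site under the same rule, counting miRNA loci that match their own strands.

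Auxin response elements were searched as TGTCTC and TGTCGG on both strands in the 300 bases before each annotated gene start. At least 1 of these elements was found in 12 of 27 Aux/IAA genes (44.4%), in 4 of 15 ARF genes (26.7%) and in 17.3% of 27443 protein-coding genes. TGTCTC alone was found in 9 Aux/IAA genes, 2 ARF genes and 3558 coding genes. The shorter core TGTCNN, which includes both elements, was in 88.9% of Aux/IAA, 93.3% of ARF and 80.6% of coding genes. A match is a description of the letters in this window and not of a bound site. The promoters of IAA19 and IAA5, with 3 elements each, and of IAA3, the Aux/IAA gene with the lowest log2 fold change below, are shown with the elements in capitals (TAIR10.1, 5′ to 3′ on the gene's strand, ending at the base before the start).
IAA19, chr3:5263701-5264000, plus strand: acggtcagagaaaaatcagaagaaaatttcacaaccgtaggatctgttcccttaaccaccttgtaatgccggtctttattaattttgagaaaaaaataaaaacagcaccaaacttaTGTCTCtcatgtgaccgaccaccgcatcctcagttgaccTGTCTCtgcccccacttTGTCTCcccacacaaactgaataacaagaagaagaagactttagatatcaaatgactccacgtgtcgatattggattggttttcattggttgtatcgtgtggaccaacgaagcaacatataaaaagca
IAA5, chr1:5366498-5366797, minus strand: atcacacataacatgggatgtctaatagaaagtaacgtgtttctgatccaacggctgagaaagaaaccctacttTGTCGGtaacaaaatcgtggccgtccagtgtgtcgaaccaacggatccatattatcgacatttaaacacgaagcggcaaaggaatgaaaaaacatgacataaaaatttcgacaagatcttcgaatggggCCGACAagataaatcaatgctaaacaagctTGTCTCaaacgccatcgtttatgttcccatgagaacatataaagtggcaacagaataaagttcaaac
IAA3, chr1:1129690-1129989, minus strand: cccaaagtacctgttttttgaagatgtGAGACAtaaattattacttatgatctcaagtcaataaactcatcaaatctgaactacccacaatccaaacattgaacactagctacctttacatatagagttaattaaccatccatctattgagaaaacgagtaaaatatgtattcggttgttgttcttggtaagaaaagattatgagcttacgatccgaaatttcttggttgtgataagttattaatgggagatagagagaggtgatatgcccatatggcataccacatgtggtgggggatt

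Levels were ordered within each family by RPKM, the count divided by exon length in kilobases and by the library total, which corrects for gene length. They are given here as levels and not as a comparison of genotypes, because RPKM uses the total count with its chloroplast share. ARF2 (AT5G62000), a class B ARF known from seed size and leaf senescence, had the highest RPKM of the ARF genes, with 38.4 ± 2.7 (SD, n = 3) in wt and 40.4 ± 6.0 (SD, n = 3) in *3h1*. It was followed by ARF6, a class A gene of flower maturation, at a mean of 8.40 over the 6 libraries, and by ARF1, a class B gene, at 7.64. Libraries of ARF2 did not overlap with those of ARF6, whereas the other 13 adjacent pairs in the order of ARF genes overlapped. The lowest ARF gene was ARF17, at 1.503. The 3 highest ARF genes held 56.2% of the summed RPKM of the family.

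In the Aux/IAA family, IAA16 (AT3G04730) had an RPKM of 29.6 ± 3.2 (SD, n = 3) in wt and 30.2 ± 1.5 (SD, n = 3) in *3h1*, and IAA9 (AT5G65670) 26.3 ± 4.3 and 31.6 ± 3.0. The libraries of these genes overlapped, so that their order was not resolved. IAA7 (AT3G23050), the gene of the dominant auxin-resistant mutant axr2, came next with 18.9 ± 0.5 in wt and 20.7 ± 0.4 in *3h1*. It lay below IAA9 and above IAA2 (mean 12.5) in every library. The only other adjacent pair without overlap was IAA13 (mean 5.79) above IAA3 (mean 3.70), and 21 of 24 adjacent pairs overlapped. Levels ranged over 80.0-fold, from IAA16 to IAA34 at 0.374, and 4 Aux/IAA genes were under 1 RPKM. No ARF gene was under 1 RPKM, and the range from ARF2 to ARF17 was 26.2-fold. The plot of RPKM by library shows the order of both families.

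**Figure D1:**
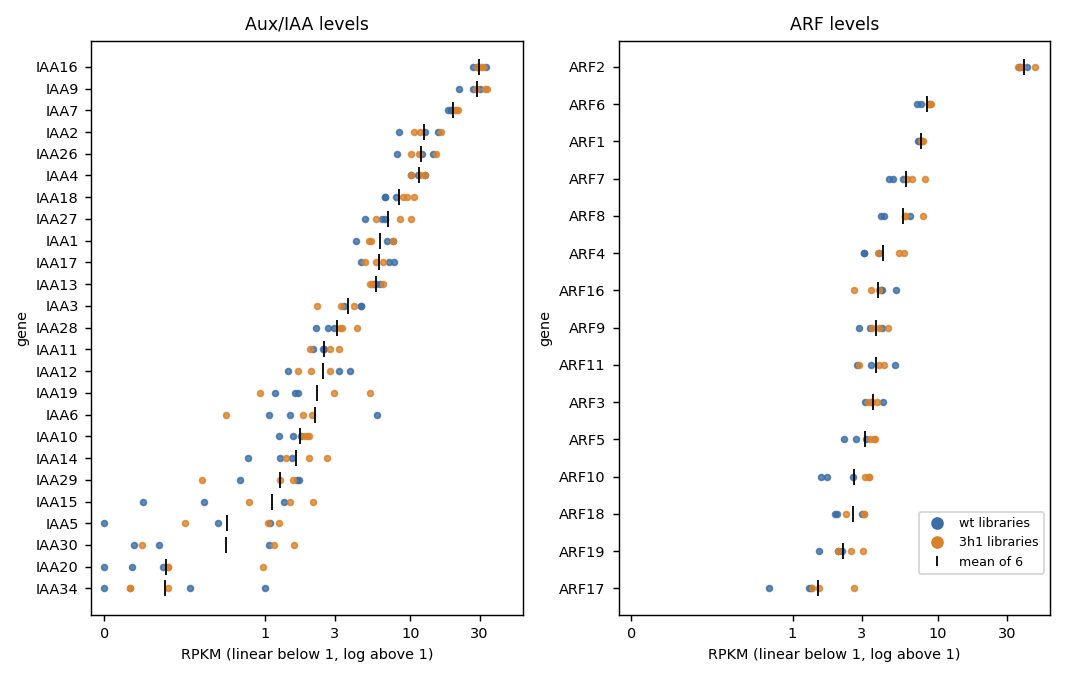
RPKM of 25 Aux/IAA genes (left) and 15 ARF genes (right) in 3 wt and 3 *3h1* libraries, ordered by the mean of all 6 (vertical tick). The axis is linear below 1 and logarithmic above. ARF2 lies apart from all other ARF genes, and the 4 lowest Aux/IAA genes have a mean under 1.

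A total of 7 Aux/IAA genes had too few counts for the test, under the filter of edgeR on low counts. IAA5, IAA20 and IAA34 held at most 6 counts in any library, and each had 0 counts in wt library 2. IAA30 held from 1 to 9.60 counts, IAA15 from 1 to 11.3, IAA6 from 4 to 30 and IAA19 from 5 to 32.4. The 30 counts of IAA6 were in wt library 1, where the other 5 libraries had 4 to 11. IAA19, which acts in hypocotyl bending and growth, had 7, 8 and 9 counts in wt and 18.4, 5 and 32.4 in *3h1*. Its high values were in *3h1* libraries 1 and 3, and its lowest in *3h1* library 2, so that the groups overlapped. All 3 measured Aux/IAA genes without the canonical degron (IAA20, IAA30 and IAA34) were among these 7. Of the 12 Aux/IAA genes with TGTCTC or TGTCGG in the promoter window, 6 were among the 7 genes below the filter and 6 were tested. Of the 13 measured Aux/IAA genes without these elements, 1 was below the filter and 12 were tested.

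The comparison of *3h1* with wt asked whether loss of H1 changed the transcript level of the auxin response families. For 33 members, 18 Aux/IAA and 15 ARF genes, edgeR gave a test. No member had an adjusted p under 0.05, adjusted by Benjamini-Hochberg over 17453 genes, and the lowest adjusted p was 0.402. DESeq2 and limma voom also gave 0 members at an adjusted p under 0.05. In this comparison 7 genes (0.0401%) passed that threshold. At an unadjusted p under 0.05, 0 members were higher in *3h1*, where 5.33% of all tested genes were, and 1 member was lower, where 4.17% of all tested genes were. In either direction this is 1 of 33 members, or 3.03%, against 9.5% of all tested genes. At that threshold limma voom gave 1 higher member, ARF10, and 2 lower members, IAA3 and ARF16, of 33. Of all 17453 tested genes it gave 769 higher and 743 lower. None of the 33 tested members had a fold change over 2, and so none had this together with an unadjusted p under 0.05. Both held for 3.07% of all tested genes, and a count of 0 among 33 is close to this share.

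The differences of members were small. The log2 fold change was within 0.5 of 0 for 29 of 33 members (87.9%) and for 82.5% of all tested genes. It ranged from -0.63 (ARF16) to 0.51 (ARF10), with a median SE of 0.22 for members and 0.26 for all tested genes. CPM did not overlap between the groups for 2 members that were higher in *3h1* (ARF7 and ARF10) and for 4 that were lower (IAA3, IAA4, ARF3 and ARF16), that is 18.2% of the members. Among all tested genes 15.1% were apart in either direction, 7.6% in the higher and 7.53% in the lower. For a single gene, permuting 3 and 3 library labels exactly gives a two-sided p of 0.1 at the smallest.

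**Figure D2:**
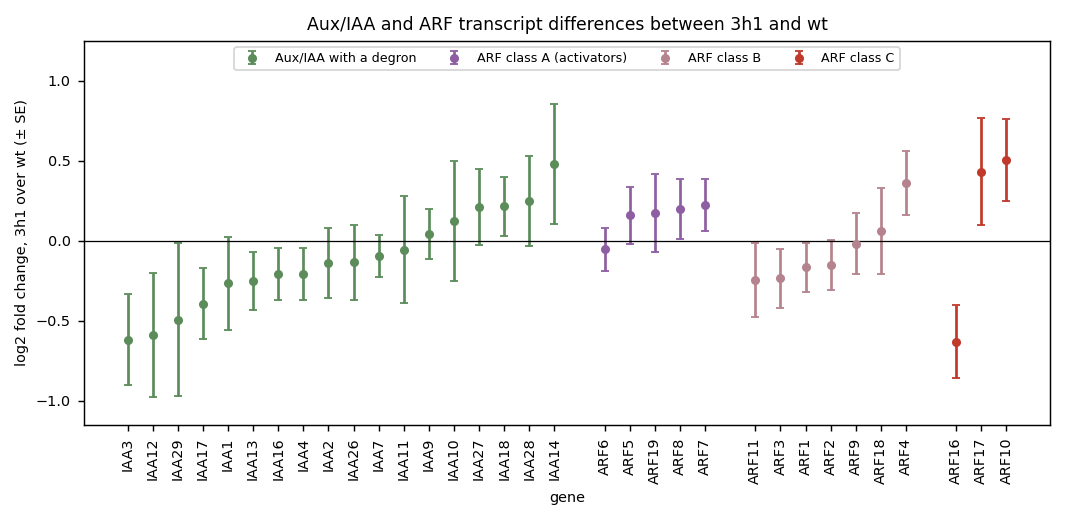
Log2 fold change of *3h1* over wt with its SE (vertical axis) for 33 tested members (horizontal axis), grouped by family and class. Values lie between -0.63 and 0.51, and the class C gene ARF16 lies at the low end while ARF10 and ARF17 of the same class lie at the high end.

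By family, 12 of 18 tested Aux/IAA genes had a negative and 6 a positive log2 fold change, with a median of -0.14. Among ARF genes 8 were positive and 7 negative, with a median of 0.06, and over all tested genes the median was 0.01. Without wt library 2 the Aux/IAA median was -0.07, and without *3h1* library 2 it was -0.23. The filter was applied anew in each fit and left 35 members in both, so these medians cover more Aux/IAA genes. The ARF median became -0.05 without wt library 1 and -0.04 without *3h1* library 2, so that its direction rested on these libraries. The summed CPM of all 25 Aux/IAA genes was 290.7, 329 and 314 in wt and 290.5, 303 and 282 in *3h1*. For the 15 ARF genes it was 348, 367 and 354 in wt and 319, 389 and 329.8 in *3h1*. The groups overlapped for both sums, and the ratios of the means were 0.938 and 0.971. These ratios became 1.099 and 1.134 when libraries were scaled by the total count, in which chloroplast transcripts dominate, and 0.977 and 1.01 when scaled by the nuclear count.

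ARF16 was the member with an unadjusted p under 0.05. It is a class C ARF that acts with ARF10 in root cap formation and seed germination. Its CPM was 10.07, 15.4 and 11.6 in wt and 8.06, 6.35 and 9.12 in *3h1*. All *3h1* libraries were below all wt libraries, and the lowest value was that of *3h1* library 2. The log2 fold change was -0.63 ± 0.23 (SE), with an edgeR p of 0.0179 and an adjusted p of 0.402. Without wt library 2, the highest of the wt libraries, the value was -0.47 and the p was 0.0724.

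The other class C genes had positive log2 fold changes. ARF10 had 27, 24 and 42 counts in wt and 60, 47 and 59.9 in *3h1*, or 4.43, 5.98 and 8.52 CPM against 8.95, 8.78 and 8.96 CPM. Its *3h1* libraries were nearly equal and lay just above the highest wt library, with a log2 fold change of 0.51 ± 0.25 (SE) and a p of 0.0717. The value was 0.28 without wt library 1, with an edgeR p of 0.303, and 0.78 without wt library 3, with a p of 0.0119. ARF17, which acts in pollen wall formation and adventitious rooting, had 3.78, 2.99 and 4.46 CPM in wt and 3.73, 4.30 and 7.16 in *3h1*. Its groups overlapped, and *3h1* library 3 alone exceeded the wt range. The log2 fold change of ARF17 was 0.43 ± 0.33 (SE), and without *3h1* library 3 it was 0.09.

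The ratio of ARF10 to ARF16 within a library does not depend on the scaling of libraries. This ratio was examined after the values had been seen and is given with no test. On the log2 scale of counts it was -1.18, -1.37 and -0.44 in wt and 0.15, 0.47 and -0.03 in *3h1*. ARF16 thus held more counts than ARF10 in all 3 wt libraries, and the genes were close to each other in *3h1*. In every *3h1* library the CPM of ARF10 was above and that of ARF16 below all wt libraries. The ratio therefore had to separate the groups, and it adds nothing to the separations of the single genes. The log2 ratio of ARF17 to ARF16 was -1.41, -2.37 and -1.37 in wt and -1.11, -0.56 and -0.35 in *3h1*, also without overlap. The log2 ratio of ARF10 to ARF17 overlapped between the groups, with means of 0.72 ± 0.43 (SD, n = 3) in wt and 0.87 ± 0.49 (SD, n = 3) in *3h1*. Both ratios that were apart have ARF16 as their denominator and so share its values. The miR160 loci were not analysed here.

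Both miR167 site genes are class A ARFs that act together in flower maturation. ARF6 had 34.8, 37.0 and 33.0 CPM in wt and 32.8, 34.7 and 33.6 in *3h1*. Its log2 fold change was -0.05 ± 0.13 (SE), and the range of 2 SE to each side ran from -0.32 to 0.21. ARF8 had 22.7, 18.1 and 16.5 CPM in wt and 19.6, 27.2 and 19.7 in *3h1*, with a log2 fold change of 0.20 ± 0.19 (SE) that became 0.0065 without *3h1* library 2. The groups overlapped for both genes, and their log2 count ratio had means of 0.88 ± 0.23 (SD, n = 3) in wt and 0.62 ± 0.23 (SD, n = 3) in *3h1*. Over the 5 ARF genes with a miRNA site the median log2 fold change was 0.20, and over the 10 without one it was 0.02.

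**Figure D3:**
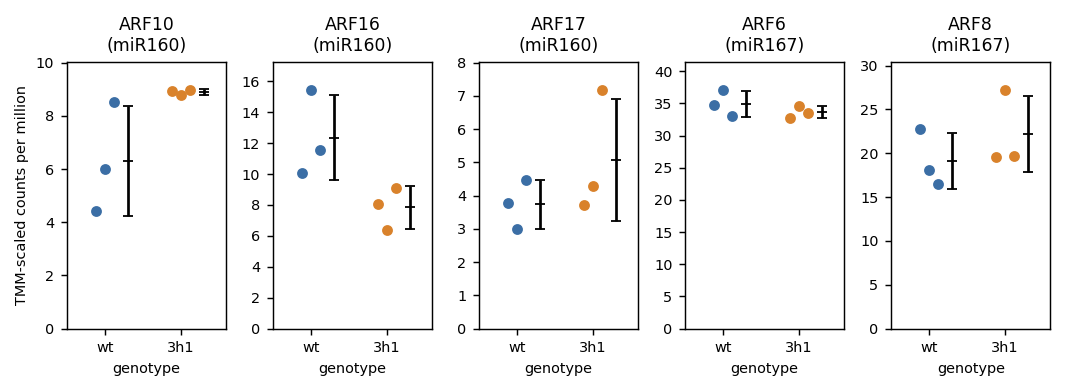
TMM-scaled CPM (vertical axis, from 0) of the 5 ARF genes with a miR160 or miR167 site in each wt and *3h1* library (points), with the mean and SD of the 3 libraries (bars). The *3h1* points of ARF16 lie below and those of ARF10 above all wt points, while the groups overlap for ARF17, ARF6 and ARF8.

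The 3 other class A genes, which activate transcription, had positive values. ARF7 (AT5G20730), which acts in lateral root formation and tropisms, had 24.8, 24.5 and 24.5 CPM in wt and 27.1, 34.5 and 24.9 in *3h1*. The groups did not overlap, but *3h1* library 3 lay close to wt library 1. Its log2 fold change was 0.22 ± 0.16 (SE), with a p of 0.188. ARF19 (AT1G19220), which overlaps with ARF7 in lateral root formation, had 6.41, 11.2 and 9.95 CPM in wt and 10.04, 8.49 and 12.1 in *3h1*, with 0.17 ± 0.25 (SE). ARF5 (AT1G19850), known as MONOPTEROS and required for embryonic root and vascular patterning, had 11.3, 9.72 and 11.1 CPM in wt and 12.2, 12.9 and 11.3 in *3h1*, with 0.16 ± 0.18 (SE). Of the class A genes 4 of 5 had a positive and 1 a negative log2 fold change, the median was 0.17, and none had a p under 0.05. Without *3h1* library 2 the log2 fold changes of ARF7 and ARF5 were 0.05 and 0.08, and without wt library 1 that of ARF19 was -0.05. ARF5, ARF7 and ARF19 each overlap another annotated gene, and whether the counting used strand is not given in the sources used here, so their counts may include reads of the neighbour.

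Among the 7 class B genes 5 had a negative and 2 a positive log2 fold change, with a median of -0.15. ARF4 (AT5G60450), which acts with ARF3 in leaf polarity and carries sites for TAS3 small RNAs, had 12.5, 11.96 and 11.4 CPM in wt and 16.4, 18.3 and 11.5 in *3h1*. The values of *3h1* libraries 1 and 2 were above wt and that of library 3 was within the wt range, with a log2 fold change of 0.36 ± 0.20 (SE) and a p of 0.101. Without *3h1* library 3 the value was 0.54, with an edgeR p of 0.0139, and without *3h1* library 2 it was 0.20. ARF3 (AT2G33860), known as ETTIN and also a TAS3 target, had 11.8, 11.8 and 10.2 CPM in wt and 9.40, 9.16 and 10.02 in *3h1*. All 3 *3h1* libraries of ARF3 lay below wt, with -0.24 ± 0.18 (SE). TAS3A, a locus among those of the TAS3 small RNAs, had 5.26, 4.98 and 7.10 CPM in wt and 4.33, 5.79 and 6.13 in *3h1*.

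ARF2, the most abundant ARF transcript, had 156, 168 and 162 CPM in wt and 128, 175 and 135 in *3h1*. Library 2 of *3h1* was above all wt libraries and the others of *3h1* were below, and the log2 fold change was -0.15 ± 0.16 (SE). ARF1 (AT1G59750) had 18.7, 22.7 and 22.3 CPM in wt and 18.4, 19.4 and 18.8 in *3h1*, with -0.17 ± 0.15 (SE). ARF11 (AT2G46530) had 13.5, 8.97 and 10.6 CPM in wt and 7.16, 11.2 and 9.85 in *3h1*, with -0.24 ± 0.23 (SE). ARF9 and ARF18 had log2 fold changes of -0.02 ± 0.19 (SE) and 0.06 ± 0.27 (SE). None of these genes separated the genotypes.

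The lowest values of the Aux/IAA family were those of IAA3, IAA12 and IAA29. IAA3 (AT1G04240), known as SHY2 and placed where auxin and cytokinin meet in the root meristem, had 6.01, 5.61 and 6.90 CPM in wt and 5.06, 4.30 and 2.79 in *3h1*. The groups did not overlap, and *3h1* library 3 was the lowest of all. The log2 fold change was -0.62 ± 0.29 (SE), with an edgeR p of 0.0535 and an adjusted p of 0.533. These values rest on 18.7 to 36.6 counts per library, of which 4 libraries held a fractional count, and IAA3 overlaps another annotated gene. IAA12 (AT1G04550), known as BODENLOS and a partner of ARF5 in the embryo, had 5.58, 5.73 and 2.44 CPM in wt and 3.88, 2.99 and 2.31 in *3h1*. Library 3 of wt fell within the *3h1* range, and the log2 fold change was -0.59 ± 0.39 (SE). IAA29 (AT4G32280), a gene induced by shade and warmth, had 4 to 13 counts per library, with -0.49 ± 0.48 (SE).

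The highest values of the family were those of IAA14, IAA28 and IAA18, and IAA27 lay close to IAA18, at 0.21 ± 0.24 (SE). IAA14 (AT4G14550), known as SOLITARY-ROOT, had 2.30, 1.99 and 3.26 CPM in wt and 4.64, 2.49 and 3.45 in *3h1*, with a log2 fold change of 0.48 ± 0.38 (SE). IAA28 (AT5G25890) had 4.02, 4.49 and 3.49 CPM in wt and 4.18, 4.48 and 5.43 in *3h1*, with 0.25 ± 0.28 (SE). IAA18 (AT1G51950) had 11.7, 16.7 and 13.4 CPM in wt and 17.4, 15.1 and 15.4 in *3h1*, with 0.21 ± 0.18 (SE). The groups overlapped for each of these genes, and none had a p under 0.05.

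The most abundant Aux/IAA genes gave the tightest limits. IAA7 had 35.5, 41.4 and 41.2 CPM in wt and 37.3, 37.2 and 35.9 in *3h1*, with a log2 fold change of -0.09 ± 0.13 (SE) and a range of 2 SE from -0.36 to 0.17. IAA9 had 56.3, 54.8 and 72.4 CPM in wt and 67.0, 66.7 and 55.4 in *3h1*, with 0.04 ± 0.16 (SE) and a range from -0.27 to 0.35. IAA16 had 53.4, 79.8 and 65.2 CPM in wt and 53.3, 59.2 and 58.5 in *3h1*, with -0.21 ± 0.16 (SE) and a range from -0.54 to 0.11. Differences of 2-fold lay outside these ranges. IAA4 (AT5G43700) had 16.6, 16.2 and 17.2 CPM in wt and 15.7, 15.1 and 12.6 in *3h1*, lower in all 3 libraries, with -0.21 ± 0.16 (SE) and a p of 0.231. The 7 other tested genes (IAA1, IAA2, IAA10, IAA11, IAA13, IAA26 and IAA27), beside IAA17 below, lay between -0.27 and 0.21. The 6 tested Aux/IAA genes with TGTCTC or TGTCGG in the promoter window had a median log2 fold change of -0.26, and the 12 without had -0.08.

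Pairs of Aux/IAA genes lie close together in the genome, and 2 such pairs were chosen for description. IAA3 and IAA17 (AT1G04250) are divergent on chromosome 1, with 6388 bases and 1 annotated gene between them. IAA17, known as AXR3, had 9.85, 7.14 and 10.6 CPM in wt and 7.88, 6.12 and 7.03 in *3h1*, with a log2 fold change of -0.39 ± 0.22 (SE) and a p of 0.105. Both genes of this pair had negative values, and their log2 count ratio overlapped between groups, at -0.56 ± 0.19 (SD, n = 3) in wt and -0.83 ± 0.44 (SD, n = 3) in *3h1*. IAA14 and IAA1 (AT4G14560) are divergent on chromosome 4, with 10732 bases and 1 annotated gene between them. IAA1 had 6.40, 8.48 and 4.46 CPM in wt and 6.56, 4.67 and 4.63 in *3h1*, with -0.27 ± 0.29 (SE). The signs of IAA1 and IAA14 were opposite, but the ratio of their counts also overlapped between groups. IAA2 and IAA7 form a further divergent pair on chromosome 3, with 12510 bases and 1 annotated gene between them. Their log2 count ratio overlapped between groups, at -1.17 ± 0.42 (SD, n = 3) in wt and -1.20 ± 0.35 (SD, n = 3) in *3h1*.

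Genes that act around these families were taken from lists by role. All 6 TIR1/AFB receptor genes had a negative log2 fold change, from -0.29 to -0.10 with a median of -0.16, where 48.8% of all tested genes were negative, and none had a p under 0.05. TIR1 itself had 28.2, 26.7 and 25.8 CPM in wt and 23.1, 23.7 and 20.6 in *3h1*, with -0.26 ± 0.14 (SE) and a p of 0.0934. The groups of TIR1 did not overlap. AFB3 followed with -0.29 ± 0.17 (SE). Of 5 TPL/TPR corepressor genes 2 were positive and 3 negative, and TPR2 (0.36 ± 0.18, SE) and TPR3 (0.39 ± 0.24, SE) had the smallest p values, 0.0672 and 0.125. Among 4 genes of the SCF ubiquitin ligase and its regulators, AXR1, which activates the ligase through cullin modification, had -0.38 ± 0.19 (SE) and a p of 0.0732, and RBX1 had -0.26 ± 0.24 (SE).

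In auxin biosynthesis 5 of 13 measured genes had enough counts, and 1 (20.0%) was higher in *3h1* at an unadjusted p under 0.05, against the 5.33% of all tested genes. YUC6, a flavin monooxygenase that makes auxin from indole pyruvate, had 10, 10 and 11 counts in wt and 31, 19 and 31 in *3h1*. All *3h1* libraries of YUC6 were above wt, with a log2 fold change of 1.03 ± 0.34 (SE), an edgeR p of 0.0116 and an adjusted p of 0.375. Of 12 tested transport genes 1 (8.33%) was lower at p under 0.05, against 4.17% of all tested genes. This was PIN7, an efflux carrier, with 63.8, 67.4 and 76.9 CPM in wt and 56.9, 57.5 and 53.7 in *3h1*. Its log2 fold change was -0.31 ± 0.14 (SE), with a p of 0.0435 and an adjusted p of 0.508. GH3 genes encode enzymes that conjugate auxin to amino acids, and none of them had a p under 0.05. Among the 5 tested, GH3.4 had 0.87 ± 0.48 (SE) and GH3.6 -0.18 ± 0.21 (SE). Of 62 measured SAUR genes, early auxin-induced genes of cell expansion, 21 were tested, 0 were higher and 3 were lower at p under 0.05 (AT3G60690, AT4G38860 and AT3G53250). This is 14.3% of the tested SAUR genes, where 4.17% of all tested genes were lower and 9.5% passed in either direction. The lowest p of these was that of AT3G60690, 0.00325, with -0.90 ± 0.24 (SE), and the median over the tested SAUR genes was -0.03. LBD18, a transcription factor gene downstream of ARF7 and ARF19, had 522, 695 and 354 CPM in wt and 237, 254 and 392.2 in *3h1*, with -0.83 ± 0.26 (SE), a p of 0.00742 and groups that overlapped. Every library held a fractional count of it. Reads divided with other loci are thus part of the value, and whether the reads assigned to LBD18 come from this gene was not tested.

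**Figure D4:**
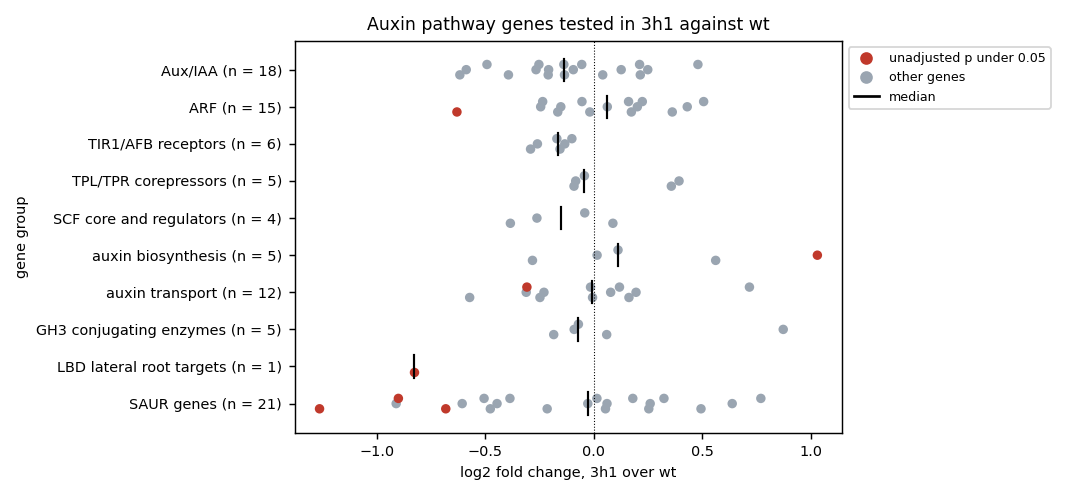
Log2 fold change of *3h1* over wt (horizontal axis) of each tested gene (point) in the Aux/IAA and ARF families and in 8 lists of auxin pathway genes, with list medians (bars) and genes with an unadjusted p under 0.05 in red. All 6 receptor genes lie left of 0, as do 48.8% of all tested genes, and ARF16 is the only red point of the first rows, which hold 18 Aux/IAA and 15 ARF genes.

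Organ markers were set beside these values, since auxin response genes differ between organs. The summed CPM of 5 leaf markers was from 8693 to 9636 in wt and from 6800 to 7650 in *3h1*, and 5 of 5 had a negative log2 fold change, of which LHCB1.1 and LHCB1.3, genes of the light-harvesting antenna, had a p under 0.05. These held most of the drop of the sum: LHCB1.3 had a mean CPM of 4364 in wt and 3084 in *3h1*, and LHCB1.1 of 1129 and 653.2, whereas RCA, CA1 and RBCS1A had log2 fold changes of -0.03, -0.09 and -0.20. For 5 root markers the sum was from 160 to 223 in wt and from 182 to 246 in *3h1*. BGLU23 made up most of this sum, with a mean CPM of 177.7 of 188.2 in wt and 190.3 of 203.2 in *3h1*. COBL9 and EXPA7, which mark root hairs, held at most 10 counts in any library. Of the 3 tested markers BGLU23 (0.10) and SHR (0.84) had a positive log2 fold change and PIN2 (-0.31) a negative one. SHR was higher at p under 0.05. The sum of 5 flower markers was from 70.4 to 142 in wt and from 41.3 to 99.8 in *3h1*, and AP1, AP3 and PI were below the filter, while LFY was lower and SEP3 higher at p under 0.05. LFY made up most of this sum, with a mean CPM of 100.8 of 104.0 in wt and 57.0 of 64.7 in *3h1*, and its count was fractional in 5 libraries. The mean CPM of SEP3 was 1.29 in wt and 3.92 in *3h1*, and AP1, AP3 and PI had means of 0.144 to 1.68. No marker was at 0 in every library. The part of organ composition in the values of the members was not tested.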

How the data were processed

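The authors removed ribosomal RNA from total RNA, sequenced the rest on an Ion Proton, aligned reads to TAIR10 and quantified ARAPORT11 genes with Partek. The deposited values used here are expected counts before normalization, in which multi-mapping reads are divided between loci. The second deposited table holds ratios, p-values and FDR of the authors' own comparison and was not used.

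Counts were rounded, filtered with filterByExpr, scaled by TMM and tested with edgeR 4.0.16 in R 4.3.3 (glmQLFit, glmQLFTest), with Benjamini-Hochberg adjustment over 17453 genes. The procedure was tested on simulated data in which 200 genes were changed by more than any member differed here. That test therefore does not show whether differences as small as those of the members can be found. DESeq2 1.42.0, limma 3.58.1 (voom) and other scalings and filters were alternatives. RPKM used TAIR10.1 exon lengths and the total count. Sequences, names and coordinates come from TAIR10.1 (RefSeq), since the files hold identifiers only. Of 26764 identifiers 26511 matched this annotation. Python 3.11.15, pandas 2.3.3 and matplotlib 3.10.9 were used.

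Members and gene lists were chosen with earlier results of these data known. Values per library are given for members with an unadjusted p under 0.05, the 3 largest changes in each direction and the 3 highest RPKM of each family, class A ARFs, ARFs with a miRNA site and the IAA1/IAA14 and IAA3/IAA17 pairs, and for IAA4, TIR1 and TAS3A, named after their values were seen. Other pathway genes are named at p under 0.05, or as the 2 smallest p of a list. Degron sequences were not analysed here.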

Additional observations from a re-analysis of the deposited data

How the results depend on the processing

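Counts differed widely between members, and ARF2 held from 675 to 951 per library. Small differences were not detectable at this depth for genes with few counts, such as IAA12, IAA14 or IAA29. In 33 members a fractional count occurred in at least 1 library, and 10 tested members overlap another annotated gene. The p-values measure the spread between 3 pools per genotype.

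Under 16 alternative fits, 19 of 24 named members kept their sign and no member had an adjusted p under 0.05. The count of members with an unadjusted p under 0.05 was 1 of 33 tested. It became 2 of 33 with RLE size factors, 2 of 40 without a filter on low counts and 3 of 33 with limma voom. When each library was left out it was 1 to 4. The highest, 4 of 35 members, was without wt library 3, where 1324 of 18790 genes passed. IAA3 passed that threshold with RLE factors, without the filter, with voom and without *3h1* library 1, at log2 fold changes of -0.63, -0.67, -0.66 and -0.82. ARF16 missed the threshold in 1 of its 16 alternatives. Others that passed it were IAA17 (without wt library 2), and IAA6, IAA12 and ARF10 (without wt library 3, ARF10 also with voom). IAA19 and ARF2 passed it without *3h1* library 2, and ARF4 without *3h1* library 3. Over all genes, 1658 genes had p under 0.05, against 995 with DESeq2, 907 without *3h1* libraries 1 and 3, and 1169 to 2813 with a library left out, the highest without *3h1* library 2. The medians ranged from -0.229 to -0.0659 for Aux/IAA and from -0.0546 to 0.0879 for ARF with a library left out. The filter was applied anew in these fits, so that the Aux/IAA genes covered differ between them. The sign of IAA9 turned without the filter (-0.0096). Without *3h1* libraries 1 and 3, a fit chosen after seeing the data, signs turned for IAA14 (-0.0509), ARF2 (0.114), ARF11 (0.0167) and ARF19 (-0.102). With single libraries left out, IAA9 ranged from -0.0449 to 0.165 and ARF19 from -0.0546 to 0.316. Summed levels in *3h1* relative to wt became 1.099 (Aux/IAA) and 1.134 (ARF) with the total count as scale. In 1000 bases before the start, 29 members held TGTCTC or TGTCGG, against 16 in 300 bases. The share of all coding genes also rose, from 17.3% in 300 bases to 48.3% in 1000. In 1000 bases it was 70.4% for Aux/IAA and 66.7% for ARF genes. With at most 3 mismatches, 4 of the 5 miRNA sites were found.

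Replicate numbers are shared between genotypes. The correlation of same-numbered libraries was -0.11 on average (-0.16 to -0.06), and that of different numbers was 0.05. Deviations from the means of 3 libraries tie these values to each other, so they cannot decide whether the numbers pair the samples. With the replicate block, 1340 genes and 1 member (ARF16) had p under 0.05. The degron search was not run. The cause of these changes was not tested.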

Other observations

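Reads assigned to LBD18 and LFY, which act in lateral root formation and in floral identity, reached levels far above those of the other genes in their lists, and their libraries were in a similar order. This was noticed after the values were seen. LBD18 held from 1360 to 3180 counts, whereas LBD16 of the same list held at most 8. The CPM of LFY was 96.4, 137 and 68.6 in wt and 43.7, 36.4 and 90.9 in *3h1*, and that of LBD18 was 522, 695 and 354 in wt and 237, 254 and 392.2 in *3h1*. Wt library 2 was the highest for both genes, and *3h1* libraries 1 and 2 were the lowest. Fractional counts were present in all 6 libraries for LBD18 and in 5 for LFY, so that reads divided with other loci are part of these levels, and whether they come from LBD18 and LFY themselves was not tested.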
